A study of Mus musculus with 8 samples.

Results

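Iron moves between cells bound to a carrier protein, is taken in through a receptor, crosses membranes through transport proteins, and is either stored in ferritin or pumped out again. Zinc and manganese use related carriers, and lead can enter some of the same routes. In the brain, endothelial cells pass blood iron inward, oligodendrocytes hold much of the tissue's iron, and microglia take up and store iron from debris. The 10 genes described here cover these steps: Trf, the iron carrier transferrin; Tfrc, its receptor; the importers Slc11a2 (DMT1), Slc39a14 (ZIP14), Slc39a8 (ZIP8) and Slc39a10 (ZIP10); Fth1 and Ftl1, the heavy and light chains of ferritin; and the exporters Slc40a1 (ferroportin, for iron) and Slc30a1 (ZnT1, for zinc). They were picked by name, and all 10 were found among the 17143 genes of the deposited table.

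Single cells from the hippocampus of 8 mice aged 5 months were sequenced on a 10x Chromium, which tags each captured transcript with a unique molecular identifier (UMI). The 4 Pb mice, 2 females and 2 males, were offspring of a/a dams whose drinking water held 32 ppm Pb-acetate, starting 2 weeks ahead of mating and lasting until weaning. The 4 Ctl mice, 2 females and 2 males, came from a/a dams of the control group, for which the labels also write control diet. Dams of both groups were about 5 weeks old when they were assigned. All 8 offspring were a/a and drank Pb-free water after weaning. Mice are named by group, sex and number. The labels give 1 male and 1 female kept per litter but tie no mouse to a litter, so mice that share a dam are treated as independent here and p-values measure the spread between these 8 animals.

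After filtering, 5175 of 5258 cells were kept, 3555 from Pb and 1620 from Ctl mice, with 3180582 to 8508064 UMIs per Pb mouse and 1749079 to 4306735 per Ctl mouse. Cells were grouped into 24 clusters and named by markers: 1276 cells were Oligodendrocyte-like, 1131 were Microglia-like, 318 were Pericyte-like, 272 were Astrocyte-like, 157 were Oligodendrocyte precursor-like, 148 were Smooth muscle-like, 110 were Cajal-Retzius-like and 95 were Choroid plexus-like. Smaller groups were 57 Border-associated macrophage-like, 44 Fibroblast-like, 27 T or NK cell-like cells and 20 cells called Ependymal-like. Cluster 0 (754 cells) and cluster 2 (562 cells) carried 8 of 8 endothelial markers. The hemoglobin genes Hba-a2 and Hba-a1 were among the leading genes of cluster 0, and Hba-a2 alone among those of cluster 2. Both were left unnamed by hand, although cluster 2 met the naming rule. Cluster 9 (188 cells) was led by hemoglobin genes and by Gpr17, a gene of committed precursors, and did not meet the rule. These 3 clusters are called by number. Marker scores of cluster 9 (mean log2 difference from the other clusters) were 3.21 for committed precursors and 2.98 for microglia. In that cluster 0 of 6 committed precursor markers were detected in at least 10% of cells. No cluster was named for mature neurons, although the tissue is hippocampus: a list of 7 neuronal markers summed to 133 ± 18.8 CPM (UMIs of a gene scaled to a common total of UMIs) over all cells of Pb mice and 136 ± 31.8 over those of Ctl mice (SD, n = 4 each). Libraries shared 32 cell barcodes. Of the 66 cells of oligodendrocyte cluster 16, 98.5% came from Ctl M2.

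Cells sense iron through a short RNA hairpin, the iron-responsive element, which iron regulatory proteins bind when iron is low. Bound in a 5′ untranslated region they block translation, and bound in the 3′ untranslated region of Tfrc they protect the transcript. The hairpins are shown because they are the sequences through which iron is known to act on these transcripts. They were found in GENCODE vM21 transcripts (build GRCm38) as a loop of CAGTGN preceded by a C and 5 bases that pair with the 5 bases after the loop (G-T pairs allowed, at least 4 others). Capitals mark the loop; the letters run 5′ to 3′ on the transcript's strand, with T for U.

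Fth1, 5′ untranslated region: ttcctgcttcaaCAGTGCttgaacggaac
Ftl1, 5′ untranslated region: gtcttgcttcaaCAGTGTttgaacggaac
Slc40a1, 5′ untranslated region: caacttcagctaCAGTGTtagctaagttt
Tfrc, 3′ untranslated region: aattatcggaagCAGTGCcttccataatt
Tfrc, 3′ untranslated region: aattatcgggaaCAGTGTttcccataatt
Tfrc, 3′ untranslated region: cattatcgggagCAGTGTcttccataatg
Tfrc, 3′ untranslated region: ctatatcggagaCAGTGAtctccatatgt

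Such a hairpin was present in the 5′ untranslated regions of 18 of 20899 genes (0.0861%) and the 3′ untranslated regions of 51 of 21022 genes (0.243%). The other 6 members had no match of this pattern, which says only that these letters are not there. Slc11a2 is among them, although the list of transcripts with iron-responsive elements used further on holds it. A missing match is therefore not read as a missing element. UMI counts measure transcripts, so a change in translation would not appear in them.

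On GRCm38 (GENCODE vM21), Trf lies on chromosome 9 at 103204001 to 103230444 (minus strand), Tfrc on chromosome 16 at 32608920 to 32632794 (plus strand), Fth1 on chromosome 19 at 9980598 to 9985098 (plus strand) and Ftl1 on chromosome 7 at 45457944 to 45459884 (minus strand). Slc40a1 lies on chromosome 1 at 45908068 to 45926523 (minus strand), Slc39a10 on chromosome 1 at 46807544 to 46892852 (minus strand) and Slc30a1 on chromosome 1 at 191906767 to 191913247 (plus strand). Slc11a2 is on chromosome 15 at 100387898 to 100425072 (minus strand), Slc39a8 on chromosome 3 at 135825279 to 135888572 (plus strand) and Slc39a14 on chromosome 14 at 70303469 to 70351425 (minus strand). All are protein-coding, and the values count the whole gene. Trf overlaps Gm20425, Slc39a10 overlaps Gm28151 and Gm37393, Slc30a1 overlaps its antisense gene 1700034H15Rik, Slc11a2 overlaps Gm5475, Slc39a8 overlaps 4933401H06Rik, Gm43428 and Gm43429, and Ftl1 overlaps Gm10252 and Gm22133 and has the pseudogenes Ftl1-ps1, Ftl1-ps2 and Ftl2-ps, so these counts are uncertain to the extent that reads were shared.

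The members divided between cell classes. Oligodendrocyte-like cells held the highest Trf and Fth1 levels, Microglia-like cells the highest Ftl1 level, and the clusters with endothelial markers the highest Tfrc, Slc40a1, Slc39a8, Slc39a10 and Slc30a1 levels, among the 11 classes measured in 3 or more mice. Slc11a2 and Slc39a14 were low throughout. Levels are CPM within a class, averaged over mice with at least 10 cells of it. These are descriptions without a test, since the clusters were made from the same cells.

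**Figure D1:**
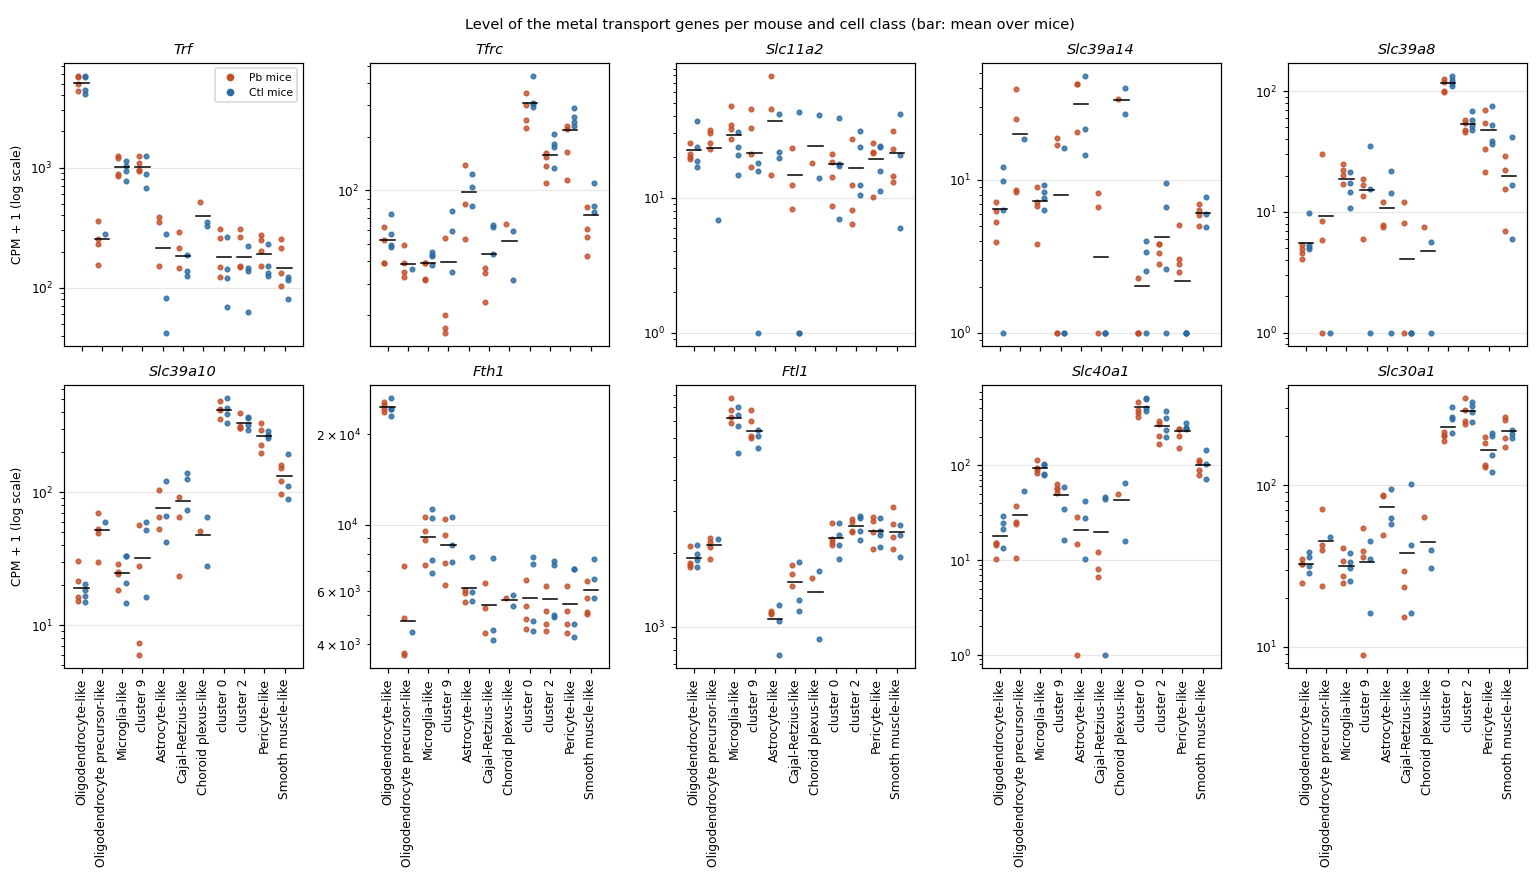
Level of each of the 10 genes (CPM + 1, log scale) in 11 cell classes; each point is 1 mouse, Pb mice left of Ctl mice, and bars are means over mice. Trf and Fth1 stood highest in Oligodendrocyte-like cells (5089 and 24582 CPM), Ftl1 in Microglia-like cells (7248 CPM), and Tfrc, Slc40a1, Slc39a8 and Slc39a10 in cluster 0.

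Trf, which oligodendrocytes and the choroid plexus are known to make in the brain, averaged 5089 ± 709 CPM in Oligodendrocyte-like cells (SD, n = 8 mice) and ranged there from 4104 to 5793 CPM. Microglia-like cells followed at 1011 ± 177 CPM (n = 8), a 5.03-fold gap with no overlap between the mice. Cluster 9 stood beside them at 1006 ± 207 CPM (n = 7). Choroid plexus-like cells had 396 ± 101 CPM (n = 3), and the rest of the 11 classes ran from 145 to 255 CPM with overlapping ranges. In the classes seen in only 2 mice, Fibroblast-like cells had 1061 ± 214 CPM and Border-associated macrophage-like cells 922 ± 92.9 CPM.

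Myelin transcripts were counted in every class, as free RNA in droplets gives, and stand beside these Trf levels. A list of 9 myelin and oligodendrocyte genes, Mbp among them, summed to 49366 ± 3196 CPM in the Oligodendrocyte-like cells of Pb mice and 48571 ± 4939 CPM in those of Ctl mice (SD, n = 4 each). The same list summed to 5233 ± 1286 CPM in Pb and 6465 ± 2718 in Ctl Microglia-like cells (n = 4 each), and to 4924 ± 757 CPM in Pb and 5623 ± 2271 in Ctl Pericyte-like cells (n = 4 each). In Astrocyte-like cells it summed to 5558 ± 989 CPM in Pb and 5835 ± 2302 in Ctl mice (n = 3 each). The sums of microglia, pericytes and astrocytes overlapped. The Trf level of microglia was above those of pericytes and astrocytes in every mouse that had both. The part of free RNA in the Trf levels outside oligodendrocytes was not tested.

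Oligodendrocytes were not uniform. Their 3 main clusters differed in the same order for both genes: Trf averaged 3689 ± 338 CPM in cluster 1 (n = 8), 5982 ± 630 in cluster 4 (n = 7) and 8151 ± 1168 in cluster 12 (n = 5), and Fth1 averaged 21357 ± 1673, 26344 ± 859 and 30551 ± 1396 CPM in these clusters. Within a mouse, cluster 12 exceeded cluster 1 in 5 of 5 mice for Trf (median ratio 2.15) and in 5 of 5 for Fth1 (median ratio 1.47). Ftl1 did not follow: cluster 12 was higher in 1 of 5 mice, with a median ratio of 0.951. Trf is itself among the leading genes of cluster 12. Cluster 16, nearly all from Ctl M2, had 4007 CPM of Trf and 21205 CPM of Fth1, close to cluster 1.

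Fth1, the ferritin chain that oxidises iron for storage, averaged 24582 ± 1063 CPM in Oligodendrocyte-like cells (SD, n = 8), from 22997 to 26356 CPM over mice. Microglia-like cells had 9085 ± 1671 CPM (n = 8), and the ranges did not meet. The other classes among the 11, except cluster 9 (8582 ± 1613 CPM, n = 7), lay between 4796 and 6149 CPM, where neighbours did not differ beyond their spread. Of the classes seen in 1 or 2 mice, Border-associated macrophage-like cells had 10352 ± 628 CPM and Fibroblast-like cells 7849 ± 334 CPM (n = 2 each), and Ependymal-like cells had 7749 CPM in 1 mouse.

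Ftl1, the chain that helps the iron core form, had another order. Microglia-like cells averaged 7248 ± 1051 CPM (n = 8) and cluster 9 averaged 6411 ± 790 CPM (n = 7), and both lay above every mouse of the next of the 11 classes, cluster 2, at 2596 ± 206 CPM (n = 8). Oligodendrocyte-like cells had 1911 ± 165 CPM (n = 8), and Astrocyte-like cells had the lowest mean of the 11 at 1076 ± 164 CPM (n = 6). Border-associated macrophage-like cells had 9255 CPM in the 2 mice with enough cells. Among microglia, clusters 3 and 5 had 7925 ± 1274 and 7632 ± 1091 CPM (n = 8 each), against 3597 ± 470 in cluster 8 (n = 7). The homeostatic genes Cx3cr1, P2ry12 and Tmem119 were among the 10 leading genes of both clusters 5 and 8. Cluster 3 was higher than cluster 8 in 7 of 7 mice for Ftl1 (median ratio 2.11) and for Fth1 (median ratio 1.27).

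The ferritin chains together give a ratio that can be set side by side between classes. Fth1 UMIs per Ftl1 UMI were 12.9 ± 1.24 in Oligodendrocyte-like cells (n = 8), 5.98 ± 2.14 in Astrocyte-like (n = 6), 3.66 ± 1.32 in Cajal-Retzius-like (n = 6), 2.50 ± 0.630 in cluster 0, 2.19 ± 0.473 in cluster 2, 2.24 ± 0.609 in Pericyte-like and 1.27 ± 0.230 in Microglia-like cells (n = 8 each). Every oligodendrocyte value, the lowest being 11.3, exceeded every value of the other classes named in the preceding sentence, the highest being 10.3. The size of the ratio in 1 class depends on how well each gene is captured, so only its difference between classes is read.

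Tfrc, the transferrin receptor that takes iron across the blood-brain barrier, averaged 308 ± 65.1 CPM in cluster 0, 218 ± 55.2 in Pericyte-like cells and 157 ± 30.9 in cluster 2 (SD, n = 8 each). Astrocyte-like cells had 96.4 ± 30.8 CPM (n = 6), Oligodendrocyte-like cells 51.8 ± 11.7 and Microglia-like cells 37.9 ± 5.08 (n = 8 each). Neighbours in this order overlapped, but within a mouse cluster 0 was above cluster 2 in 8 of 8 mice, by a median ratio of 2.003. The level in pericytes came from 1 of their clusters. Cluster 7 had 247 ± 65.8 CPM of Tfrc (n = 8) and 2983 ± 337 CPM of the endothelial marker Cldn5, against 40.6 ± 38.0 CPM of Tfrc and 335 ± 53.6 CPM of Cldn5 in cluster 13 (n = 4). In the 4 mice with both, cluster 7 was higher in 4 of 4 for each of Tfrc, Slc40a1, Slc39a8, Slc39a10 and Slc30a1. The 8 endothelial markers summed to 16435 ± 1316 CPM in cluster 0, 10123 ± 1136 in Pericyte-like and 10633 ± 927 in Smooth muscle-like cells of Pb mice, and to 15626 ± 561 (n = 4), 9987 ± 714 (n = 4) and 10699 ± 2840 CPM (n = 3) in those of Ctl mice; their part in the pericyte and smooth muscle levels of these 5 transporters was not tested.

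The other transporters of the vascular clusters followed. Slc40a1, the only known iron exporter of vertebrates, had 414 ± 70.7 CPM in cluster 0, 257 ± 69.2 in cluster 2, 231 ± 37.4 in Pericyte-like and 91.9 ± 11.8 in Microglia-like cells (n = 8 each), against 16.9 ± 6.35 in Oligodendrocyte-like cells (n = 8), the lowest mean of the 11 classes. Slc39a8, a zinc, manganese and iron importer, reached 115 ± 12.3 CPM in cluster 0, and no mouse of cluster 2 (52.9 ± 7.44 CPM) came up to that range. Slc39a10, a zinc importer, had 414 ± 60.6 CPM in cluster 0, 331 ± 36.4 in cluster 2 and 264 ± 41.4 in Pericyte-like cells. Slc30a1, the zinc exporter of the plasma membrane, was ordered the other way in the endothelial clusters: cluster 2 had 284 ± 40.1 CPM and cluster 0 had 228 ± 39.4, and cluster 0 was the higher one in 1 of 8 mice. The endothelial marker Cldn5 was higher in cluster 0 in 8 of 8 mice, by a median ratio of 1.43.

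**Figure D2:**
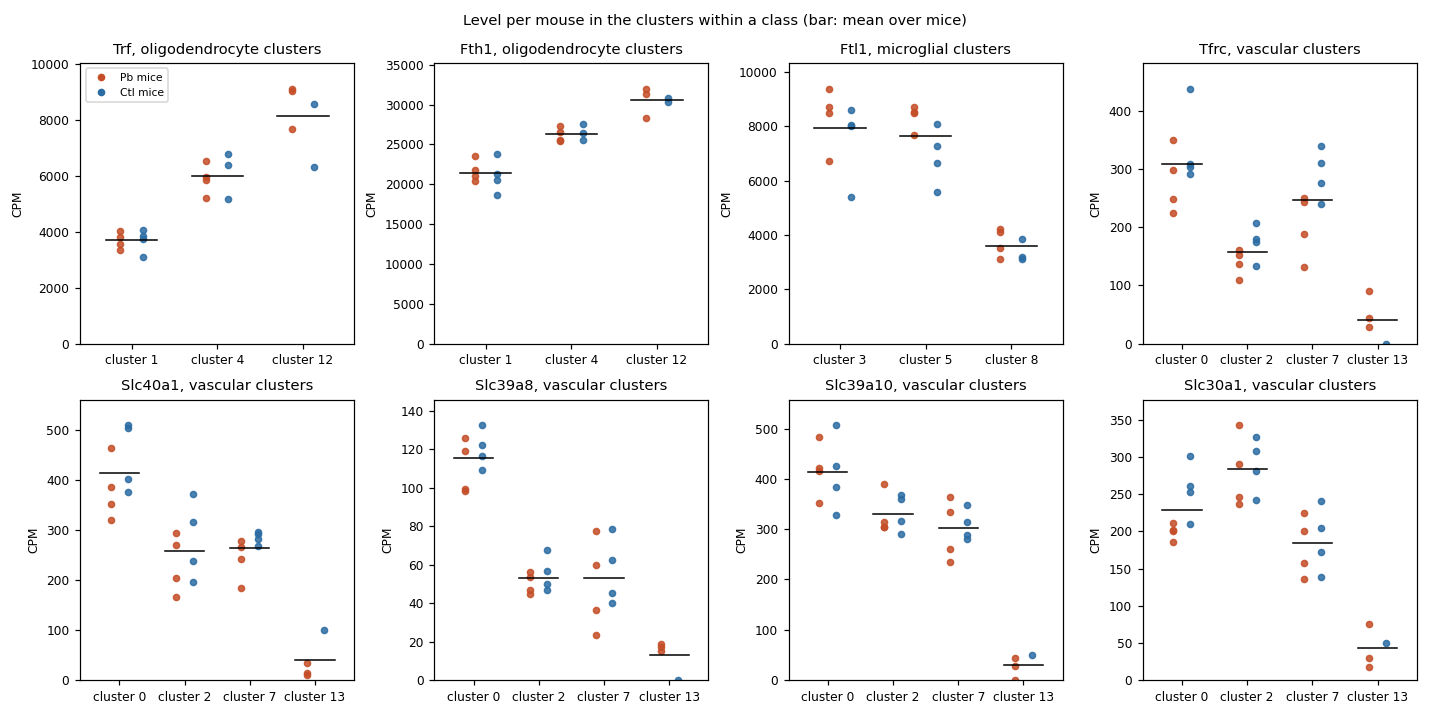
Level (CPM) per mouse in oligodendrocyte, microglial and vascular clusters; Pb mice left of Ctl mice, bars are means. Trf and Fth1 climb over oligodendrocyte clusters 1, 4 and 12, Ftl1 is lower in microglial cluster 8 (mean 3597 CPM), and the 5 transporters are lower in cluster 13 than in cluster 7 of the Pericyte-like cells.

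Slc11a2, which moves iron out of endosomes, had means of 13.8 to 36.0 CPM over the 11 classes, with overlapping neighbours. Slc39a14, an importer of manganese and iron, was the rarest member with 248 UMIs over all kept cells. Its levels were 32.4 ± 6.35 CPM in Choroid plexus-like (n = 3), 30.6 ± 14.3 in Astrocyte-like (n = 6) and 19.1 ± 13.02 in Oligodendrocyte precursor-like cells (n = 5), and between 1.02 and 6.97 CPM in the other 8 classes. In cluster 0 this rested on 4 UMIs of 4837816, where 3 UMIs would be 0.620 CPM.

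The genes whose class pattern was most like a member's, by Pearson's r of mean log2(CPM + 5) over 12 classes among 7432 genes, are given as a description; the classes share libraries and carried-over RNA. For Trf they were Rffl (0.953), Evi2a (0.938) and Fth1 (0.935), and for Fth1 Tmem63a (0.953), Trf (0.935) and Mog (0.924). Ftl1 was closest to Ptpn1 (0.961), Plaur (0.958) and Batf (0.953). For Tfrc, Unc45b (0.935) and Ctla2a (0.934) are given, and Slc40a1 was closest to Prkch (0.972), AI467606 (0.960) and Elk3 (0.957). For Slc39a8 they were Def6 (0.975), Slc3a2 (0.936) and Gimap6 (0.932), for Slc39a10 Palm (0.982), Ptprg (0.977) and Spock2 (0.966), and for Slc30a1 Sox7 (0.981), Rasip1 (0.981) and Fam65a (0.978). Slc11a2 (Arap1, 0.905; Plekho2, 0.889; Sdc4, 0.885) and Slc39a14 (Canx, 0.934; Kcnk1, 0.905; Clu, 0.904) reached 50 CPM in no class.

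The study's comparison is lead-exposed against control offspring, months after exposure ended. No member passed edgeR's quasi-likelihood test at an adjusted p under 0.05 in any of 10 units (all cells, and 9 classes with at least 3 mice per group). Of 69 member and unit pairs tested, 9 (13%) had an unadjusted p under 0.05, 4 of them higher and 5 lower in Pb mice. DESeq2 and limma-voom called 0 members too, with 6 and 8 pairs at an unadjusted p under 0.05. Over all genes of the 10 units that share was 4.49%, and the 69 pairs share mice, free RNA and, for all cells, the cells themselves. The CPM of Pb and Ctl mice overlapped in each of the 69 pairs, whereas the groups did not overlap for 3.71% of all gene and unit pairs. Across all genes, the adjusted test called 0% in each of the 10 units. The share of genes at an unadjusted p under 0.05 was 4.99% in all cells (n = 12640 genes), 5.91% in Astrocyte-like, 2% in Cajal-Retzius-like, 4.35% in Microglia-like cells, and 4.2% in those called Oligodendrocyte-like. It was 4.19% in Pericyte-like and 4.32% in Smooth muscle-like cells, 4.1% in cluster 0, 4.39% in cluster 2 and 6.83% in cluster 9. By DESeq2, 19 genes passed over all cells, 9 in Microglia-like, 1 in Oligodendrocyte-like cells and 1 in cluster 9, with no member among them, and limma-voom called 0.

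**Figure D3:**
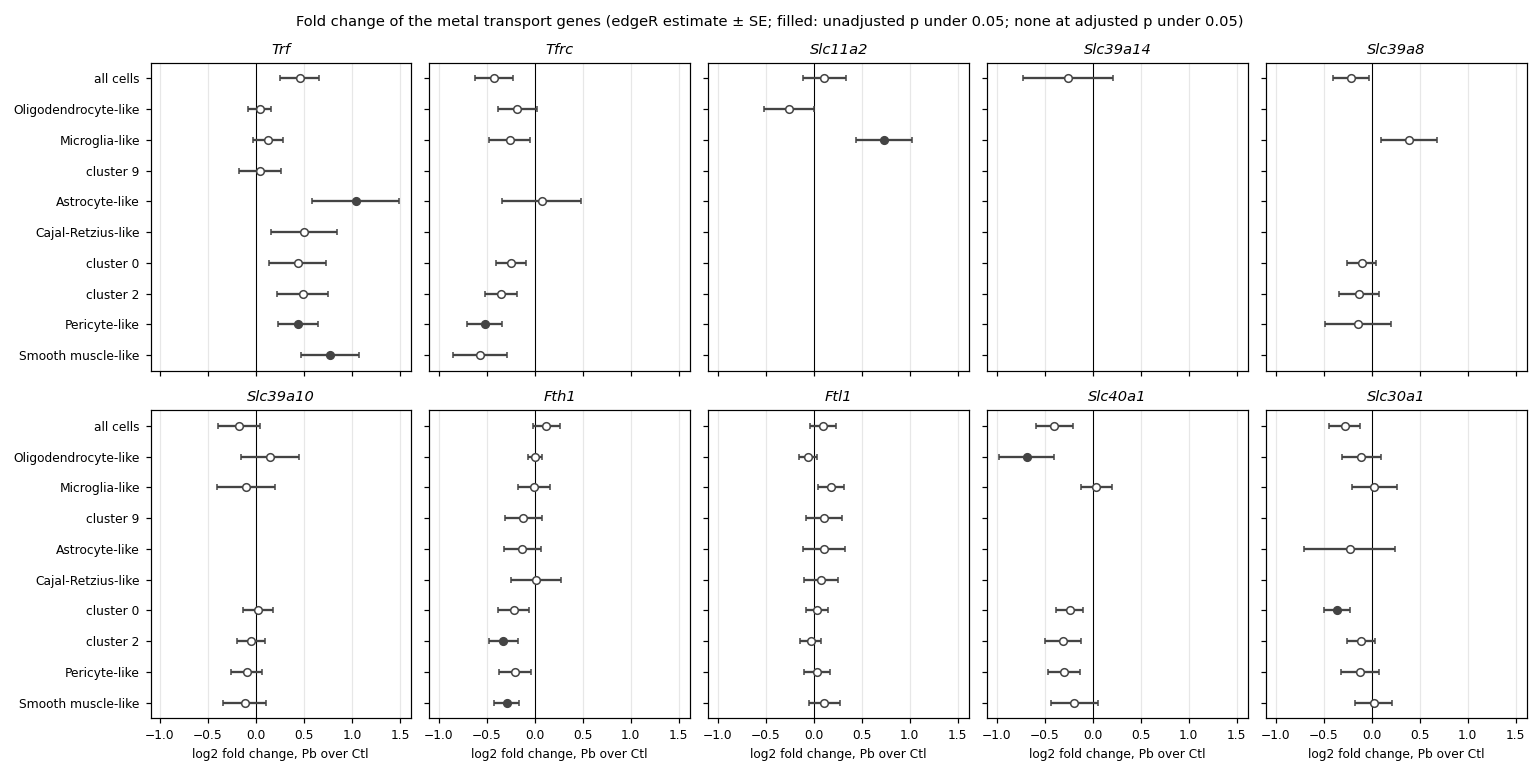
Log2 fold change, Pb over Ctl, of each gene in each unit where it was tested (points, edgeR estimate, and bars, SE). The SE of a fold change, here and in the text, is its absolute value divided by the square root of edgeR's F statistic. Filled points have an unadjusted p under 0.05. Trf points lie at or right of 0 in 10 of 10 units and Tfrc points left of it in 7 of 8, and none passed the adjusted threshold.

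Trf had a fold change above 0 in 10 of 10 units, from 0.04 to 1.04 on the log2 scale, and did not pass the test in any. In Astrocyte-like cells it had 350, 150 and 385 CPM in Pb F1, M1 and M2, against 41.2, 281 and 80.6 CPM in Ctl F1, F2 and M2, from 2 to 59 UMIs per mouse. The groups overlapped, and Ctl F2 lay above Pb M1. The log2 fold change was 1.04 (SE 0.45, edgeR adjusted p = 0.825), and without Pb M1 it was 1.27 (edgeR adjusted p = 0.0491); with 1 mouse left out it ran from 0.72 to 2.08. In Smooth muscle-like cells Trf had 254, 102, 132 and 211 CPM in Pb F1, F2, M1 and M2, against 79.2, 114 and 121 CPM in Ctl F1, M1 and M2. Pb F2 lay within the Ctl range and the other 3 Pb mice above it (log2 fold change 0.77, SE 0.30, edgeR adjusted p = 0.999), and without Pb F1 the fold change was 0.47. In Pericyte-like cells it had 273, 152, 199.9 and 249 CPM in Pb F1, F2, M1 and M2, against 131, 231, 151 and 125 CPM in Ctl F1, F2, M1 and M2 (log2 fold change 0.44, SE 0.21, edgeR adjusted p = 0.9998). Here 2 Pb mice lay above the highest Ctl mouse, and without Ctl F2, that mouse, the fold change was 0.68. Over all cells Trf had 1811 ± 419 CPM in Pb and 1299 ± 288 in Ctl mice (n = 4 each), a log2 fold change of 0.46 (SE 0.20; adjusted p = 0.976, edgeR), and in cluster 2 it had 217 ± 81.0 CPM in Pb and 141 ± 64.9 in Ctl mice (log2 fold change 0.49, SE 0.27, edgeR adjusted p = 0.9999). With 1 mouse left out, the cluster 2 value ran from 0.25 (without Pb F1) to 0.82 (without Ctl F2).

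In the class with the highest level, Oligodendrocyte-like cells, Trf had 5184 ± 661 CPM in Pb and 4993 ± 844 in Ctl mice (n = 4 each), a log2 fold change of 0.04 with an SE of 0.12. Microglia-like cells had 1053 ± 210 in Pb and 969 ± 155 CPM in Ctl mice (0.13, SE 0.15). Oligodendrocyte-like cells made up 22.1% to 30.2% of the cells of Pb mice and 19.0% to 20.8% of those of Ctl mice, a composition that the all-cells value contains. Of the 8 myelin list genes tested in Smooth muscle-like cells, 4 had an unadjusted p under 0.05 and were higher in Pb mice. The same held for 6 of 9 among microglia, 4 of 9 in cluster 0, 3 of 9 among pericytes, 3 of 8 among astrocytes, 5 of 9 over all cells, 2 of 9 in cluster 2, 2 of 7 in Cajal-Retzius-like cells, 1 of 9 among oligodendrocytes and 0 of 8 in cluster 9. In Smooth muscle-like cells 2 of the 8 were lower in Pb mice, and in clusters 0 and 2 it was 1 of the 9 in each. Beside these counts, the share of all genes, in either direction, was 2% to 6.83% over the 10 units. The list's sum overlapped between the groups in all 10 units. Over all cells it was 17875 ± 1517 CPM in Pb and 14648 ± 2954 in Ctl mice. But its mean was lower in Pb in Smooth muscle-like cells (4312 ± 883 CPM in Pb and 5595 ± 2184 in Ctl mice, n = 4 and 3) and in cluster 2 (4953 ± 1008 CPM in Pb and 6015 ± 2490 in Ctl mice). The mean was also lower in Pb in Pericyte-like, Astrocyte-like and Microglia-like cells and in cluster 0. It was higher in Pb in Oligodendrocyte-like and Cajal-Retzius-like cells and in cluster 9. Mbp, which encodes a major myelin protein, had log2 fold changes of -0.42 (SE 0.31) in Astrocyte-like, -1.10 (SE 0.26) in Smooth muscle-like and -0.67 (SE 0.33) in Pericyte-like cells and -0.80 (SE 0.34) in cluster 2, none past the adjusted test. The part of these transcripts in the Trf differences was not tested.

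**Figure D4:**
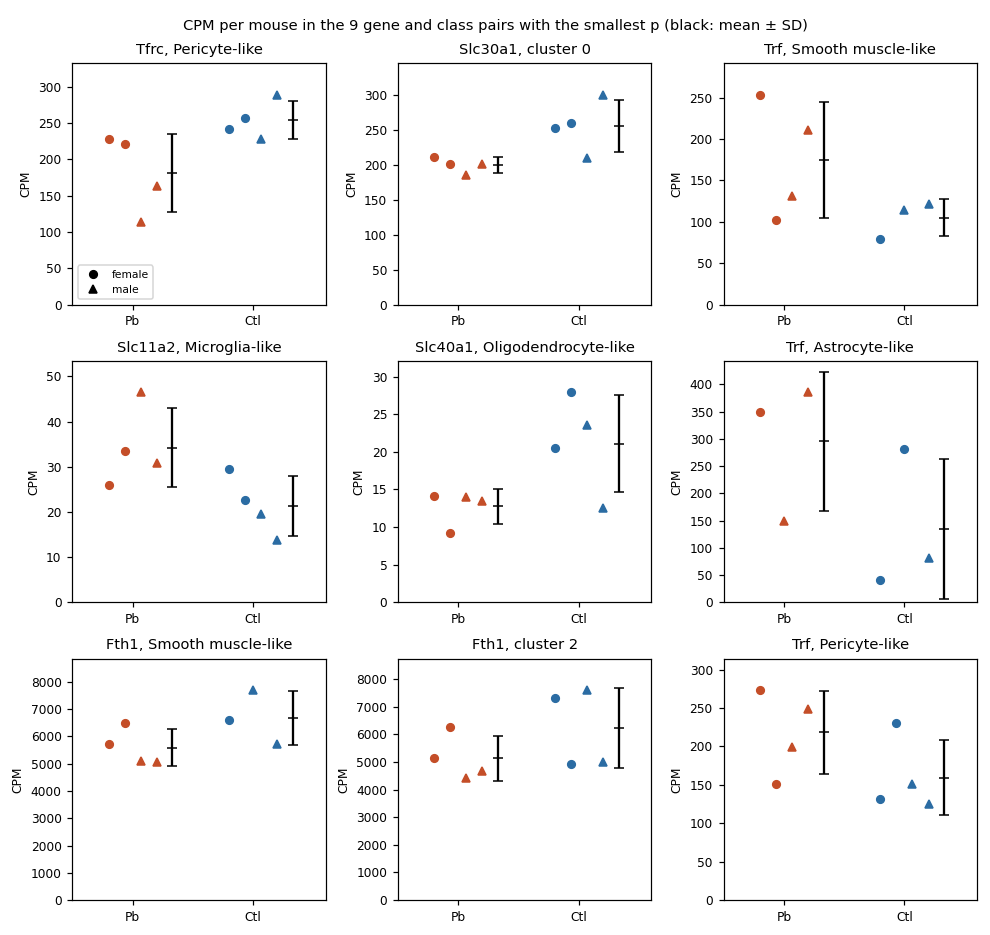
CPM per mouse (circles, females; triangles, males) in the 9 gene and class pairs with an unadjusted p under 0.05, Pb left and Ctl right; black marks are means ± SD. The groups overlap in every panel, and Tfrc in Pericyte-like cells, with Pb mice between 113 and 229 CPM and Ctl mice between 228 and 289 CPM, overlaps by 1 mouse.

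Tfrc had fold changes below 0 in 7 of 8 units, from -0.57 to 0.07, and passed the test in none. In Pericyte-like cells it had 229, 221, 113 and 163 CPM in Pb F1, F2, M1 and M2, against 243, 257, 228 and 289 CPM in Ctl F1, F2, M1 and M2. Pb F1 lay just above the lowest Ctl mouse, Ctl M1, and the other 3 Pb mice lay below all Ctl mice (log2 fold change -0.52, SE 0.18, edgeR unadjusted p = 0.0105, adjusted p = 0.9998). Within cluster 7 alone it had 249.9, 243, 132 and 188 CPM in Pb mice, in the same order, against 276, 311, 239 and 340 CPM in Ctl mice. Cluster 13, which is low in Tfrc, made up 28.6% to 45.2% of the pericyte cells of Pb mice and 20% to 40.6% of those of Ctl mice, and its part in the difference was not tested. In Smooth muscle-like cells Tfrc had 58.9 ± 16.0 CPM in Pb (n = 4) and 88.2 ± 18.1 in Ctl mice (n = 3), with a log2 fold change of -0.57 (SE 0.28, edgeR adjusted p = 0.999). In cluster 2 it had 140 ± 22.6 CPM in Pb and 174 ± 30.8 in Ctl mice (-0.35, SE 0.17, edgeR adjusted p = 0.9999; -0.19 without Ctl M1), and over all cells 97.9 ± 16.4 and 131 ± 36.2 CPM (-0.43, SE 0.20, edgeR adjusted p = 0.976). The all-cells value contains the cell composition, whose part was not tested. In cluster 0, where the receptor was highest, the difference was -0.25 (SE 0.16; 280 ± 55.8 CPM in Pb and 336 ± 68.8 in Ctl mice, n = 4 each).

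The importers showed 1 pair of small p. Slc11a2 in Microglia-like cells had 26.0, 33.5, 46.5 and 30.9 CPM in Pb F1, F2, M1 and M2, against 29.5, 22.6, 19.6 and 13.7 CPM in Ctl F1, F2, M1 and M2. The lowest Pb mouse lay below the highest Ctl mouse, and these values rest on 8 to 50 UMIs per mouse (log2 fold change 0.73, SE 0.29, edgeR unadjusted p = 0.0225, adjusted p = 0.99998). With 1 mouse left out it ran from 0.48 (without Ctl M2) to 0.93 (without Pb F1). In Oligodendrocyte-like cells Slc11a2 was 20.3 ± 2.70 CPM in Pb and 23.0 ± 9.23 in Ctl mice. Slc39a8 ranged from -0.22 to 0.38 in 5 units, Slc39a10 from -0.18 to 0.15 in 7, and Slc39a14 could be tested over all cells only (-0.26, SE 0.47). In cluster 0, where Slc39a8 and Slc39a10 were highest, their fold changes were -0.11 (SE 0.15) and 0.02 (SE 0.15).

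The ferritin genes passed the test in no unit. Fth1 in Oligodendrocyte-like cells had 24681 ± 825 CPM in Pb and 24484 ± 1390 in Ctl mice (n = 4 each), a log2 fold change of -0.00 with an SE of 0.07. Ftl1 in Microglia-like cells had 7672 ± 790 CPM in Pb and 6823 ± 1213 in Ctl mice (0.18, SE 0.14), and over 10 units it ran from -0.06 to 0.18. Fth1 was below 0 in 8 of 10 units. In cluster 2 it had 5156, 6253, 4432 and 4653 CPM in Pb F1, F2, M1 and M2, against 7318, 4938, 7597 and 4997 CPM in Ctl F1, F2, M1 and M2. The Ctl mice fell into 2 high and 2 low ones, and the low ones lay within the Pb range (log2 fold change -0.33, SE 0.15, edgeR adjusted p = 0.9999). In Smooth muscle-like cells it had 5701, 6478, 5110.5 and 5059 CPM in Pb F1, F2, M1 and M2, against 6590, 7694 and 5718 CPM in Ctl F1, M1 and M2. Here Pb F2 lay within the Ctl range and the other 3 Pb mice below it (log2 fold change -0.29, SE 0.13, edgeR adjusted p = 0.999). Without Ctl M1, which had the highest Fth1 level in both, the fold change was -0.16 in each. Fth1 per Ftl1 UMI was 13.2 in Pb and 12.7 in Ctl Oligodendrocyte-like cells, and 1.19 and 1.34 in Microglia-like cells. None of the 6 units tested passed for this ratio (exact permutation tests, two-sided, 4 against 4 mice, p from 0.229 to 0.886, adjusted p from 0.583 to 0.886 over 6 tests; the smallest p possible is 0.0286).

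Among the exporters, Slc40a1 in Oligodendrocyte-like cells had 14.2, 9.26, 14.05 and 13.5 CPM in Pb F1, F2, M1 and M2, against 20.4, 27.9, 23.5 and 12.5 CPM in Ctl F1, F2, M1 and M2. The Pb mice were close together, and Ctl M2 lay among them (log2 fold change -0.69, SE 0.29, edgeR unadjusted p = 0.0310, adjusted p = 0.9998). Oligodendrocytes had the lowest mean Slc40a1 level of the 11 classes, and 7 to 36 UMIs per mouse stand behind these values. With 1 mouse left out it ran from -0.92 (without Ctl M2) to -0.46 (without Ctl F2). The endothelial list summed to 814 ± 89.6 CPM in the oligodendrocytes of Pb and 826 ± 324 in those of Ctl mice, and its part was not tested. In Pericyte-like cells Slc40a1 had 211 ± 42.3 CPM in Pb and 252 ± 17.7 in Ctl mice (-0.30, SE 0.17, edgeR adjusted p = 0.9998), and over all cells it had 123 ± 17.6 CPM in Pb and 160 ± 40.7 in Ctl mice (-0.40, SE 0.19, edgeR adjusted p = 0.976). Without Ctl M1 these fold changes were -0.17 in Pericyte-like cells and -0.20 over all cells. The all-cells value again contains the cell composition, whose part was not tested. The endothelial list summed over all cells to 6046 ± 1134 CPM in Pb and 6613 ± 2000 in Ctl mice, with overlap. In Microglia-like cells Slc40a1 had 93.4 ± 13.04 CPM in Pb and 90.3 ± 12.2 in Ctl mice (0.03, SE 0.16).

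Slc30a1 in cluster 0 had 212, 202, 185 and 201 CPM in Pb F1, F2, M1 and M2, against 253, 261, 209.96 and 301 CPM in Ctl F1, F2, M1 and M2. The Pb mice were tight and 3 of them lay below all Ctl mice, while Pb F1 lay just above Ctl M1 (log2 fold change -0.36, SE 0.14, edgeR unadjusted p = 0.0158, adjusted p = 0.9998). With 1 mouse left out it ran from -0.45 (without Ctl M1) to -0.24 (without Ctl M2). In cluster 2, where its level was highest, it was 279 ± 48.4 CPM in Pb and 289 ± 36.5 in Ctl mice (-0.11, SE 0.14). Slc30a1 is known to be switched on by zinc through the factor Mtf1, as are the metallothioneins Mt1 and Mt2, which bind zinc.

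Exposure and sex were tested together in the 6 units with 8 mice. Of 51 pairs, 0 members had an adjusted p under 0.05 for the interaction (edgeR; 0% of all genes), and 2 had an unadjusted p under 0.05 (3.18% of all genes). Both were in Pericyte-like cells. Tfrc had 138 CPM in Pb males and 259 in Ctl males, but 225 in Pb females and 249.6 in Ctl females (n = 2 each; males minus females -0.74 on the log2 scale, SE 0.33, edgeR unadjusted p = 0.0377). Slc39a10 had 209 CPM in Pb males and 276 in Ctl males, but 309 in Pb females and 260 in Ctl females (-0.65, SE 0.29, edgeR unadjusted p = 0.0407). Both had an edgeR adjusted p of 0.9999.

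The wider pathway was read from 12 lists of 103 genes, 94 of them in the table and 81 tested in at least 1 unit: iron uptake, storage, export and sensing, transcripts with iron-responsive elements, mitochondrial iron and iron-sulfur clusters, heme transport, ZIP importers, ZnT exporters, zinc sensing, manganese pumps and copper transport. No listed gene passed the adjusted test in any unit. Of 474 listed gene and unit pairs, 12 had an unadjusted p under 0.05 higher and 14 lower in Pb mice, together 5.49%, beside 4.49% of all genes. The lists include members, and the 9 member pairs at an unadjusted p under 0.05 given earlier are counted here again. The share is thus not separate from that of the members. Median log2 fold changes of the listed genes ran from -0.10 in cluster 9 to 0.06 in Cajal-Retzius-like cells, and those of all genes from -0.02 to 0.00.

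The zinc sensing list, Mtf1, Mt1, Mt2, Mt3 and Slc30a1, had 2 of 4 tested genes at an unadjusted p under 0.05 in Pericyte-like cells and 2 of 5 in cluster 2, lower in Pb in both, beside 4.19% and 4.39% of all genes in these units. It had 1 of 5 lower in cluster 0, which was Slc30a1 itself, as given earlier, beside 4.1% of all genes. In Astrocyte-like cells it had 1 of 4 higher, Mt3, beside 5.91% of all genes, and it had 0 in each of the other 6 units. In pericytes Mt1 had 1132 ± 306 CPM in Pb and 1557 ± 424 in Ctl mice (n = 4 each; -0.47, SE 0.15, edgeR adjusted p = 0.9998), and in cluster 2 it had 1152 ± 302 and 1413 ± 430 CPM (-0.31, SE 0.12, edgeR adjusted p = 0.9999). Mt2 in cluster 2 had 439 ± 150 CPM in Pb and 583 ± 155 in Ctl mice (-0.48, SE 0.15, edgeR adjusted p = 0.788), and in pericytes -0.64 (SE 0.15, edgeR adjusted p = 0.801). The list's median was -0.42 in pericytes and -0.11 in cluster 2, but 0.10 in both Microglia-like and Smooth muscle-like cells and 0.29 in Cajal-Retzius-like cells, where 2 of its genes were tested. In the remaining units it was -0.27 in cluster 9, -0.20 in Astrocyte-like cells, -0.13 in cluster 0, -0.12 over all cells and -0.01 in Oligodendrocyte-like cells. Slc39a1, a zinc importer of the plasma membrane, had 52.2 ± 11.9 CPM in Pb and 97.3 ± 14.6 in Ctl mice in cluster 2, where each Pb mouse lay below each Ctl mouse (-0.85, SE 0.21, edgeR adjusted p = 0.505). In Smooth muscle-like cells it had 87.6 ± 12.6 CPM in Pb (n = 4) and 139 ± 41.7 in Ctl mice (n = 3; -0.68, SE 0.24, edgeR adjusted p = 0.966), again without overlap. Over all gene and unit pairs the groups did not overlap for 3.71%, and Slc39a1 is named for its small p.

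Other listed genes at an unadjusted p under 0.05 were few per unit. Slc48a1, a heme transporter, was 0.43 (SE 0.15) over all cells and 0.40 (SE 0.18) in Pericyte-like cells, with 126 ± 18.3 CPM in Pb and 94.3 ± 17.9 in Ctl mice there. Over all cells Neo1, a co-receptor in hepcidin control, was 0.40 (SE 0.16) and Slc31a1, a copper importer, was -0.60 (SE 0.25). In Astrocyte-like cells Epas1, a hypoxia factor whose transcript is under iron control, was 0.75 (SE 0.31) and Mt3, the brain metallothionein, was 0.40 (SE 0.19). Atp2c1, a Golgi manganese pump, was 0.56 (SE 0.25) in Microglia-like cells. Abcb8, a mitochondrial transporter, was -0.37 (SE 0.15) in Oligodendrocyte-like cells. In cluster 2 Bola3 (iron-sulfur cluster assembly) was 0.42 (SE 0.17) and Pcbp1 (an iron chaperone to ferritin) was 0.39 (SE 0.18), and in cluster 9 Id1, a target of the signal that controls hepcidin, was -0.92 (SE 0.37). Pb and Ctl mice did not overlap for Epas1, Bola3 and Id1 in these units, and overlapped for the other genes of this paragraph.

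Heat shock and immediate early genes differed in mean between the groups beside these values. Heat shock genes summed to a higher mean in Pb than in Ctl mice in all 10 units. The groups did not overlap in 3 of them: the sums were 6957 ± 760 CPM in Pb and 4929 ± 367 in Ctl Oligodendrocyte-like cells (n = 4 each), 2789 ± 130 CPM in Pb and 1732 ± 241 in Ctl Astrocyte-like cells (n = 3 each), and 11788 ± 1613 CPM in Pb (n = 4) and 8004 ± 1687 in Ctl (n = 3) Smooth muscle-like cells. With overlap, they were 13365 ± 4038 CPM in Pb and 7685 ± 984 in Ctl Microglia-like cells, and 13908 ± 2848 CPM in Pb and 10006 ± 2464 in Ctl Pericyte-like cells (n = 4 each). Immediate early genes, which tissue dissociation is known to switch on, summed to a lower mean in Pb mice in all 10 units. In cluster 2 they summed to 13538 ± 1134 CPM in Pb and 16634 ± 1402 in Ctl mice, without overlap. In every other unit the groups overlapped, with 2248 ± 57.7 CPM in Pb and 2266 ± 448 in Ctl Astrocyte-like cells (n = 3 each). The measures that follow overlapped between the groups where they are given. The 6 choroid plexus genes, with Ttr among them, summed to between 11.2 and 4629 CPM in Pb and 17.2 and 17141 CPM in Ctl Microglia-like cells. Hemoglobin ran from 26.8 to 14075 CPM in Pb and from 178 to 5761 CPM in Ctl mice in cluster 0, and from 91.7 to 4282 CPM in Pb and from 231 to 14201 CPM in Ctl mice in cluster 2. The median mitochondrial share per mouse was 2.93% to 3.44% in Pb and 3.31% to 4.45% in Ctl mice. Their part in the members' values was not tested.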

How the data were processed

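The deposited table holds raw UMI counts per gene and cell, since its values are whole and its columns sum to different totals. The submitters' processing notes name Cell Ranger, Seurat and mm10, without roles or versions; filters, annotation and use of strand were not stated. The start of each cell name gave its mouse (0 columns were left over). Cells over 20% mitochondrial UMIs (53) and doublets called by Scrublet (33 called, 0.628%, 30 removed after the first filter) were left out. Clustering used scanpy 1.11.5 (2000 variable genes, 30 principal components, 15 neighbours, Leiden resolution 1.0, seed 1). Clusters were named from fixed marker sets with thresholds set after the data were seen, and the endothelial clusters were left unnamed by hand, also after the data were seen.

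Counts were summed per mouse and class (at least 10 cells) and tested with edgeR 4.0.16 (quasi-likelihood, TMM, filterByExpr, sex as covariate) in R 4.3.3, on all genes, with Benjamini-Hochberg adjustment and a threshold of 0.05. The fit was also run on simulated data whose planted changes were larger than any member's in the main fits. That run does not bear on changes of the size reported here. Summed UMIs per mouse ranged from 48525 in Astrocyte-like to 2538170 in Oligodendrocyte-like cells. Alternatives were other scaling, filter, tools (DESeq2 1.42.0, limma-voom 3.58.1), covariates, clusterings and each mouse left out. Over 28 pairs of libraries, chi-square per degree of freedom was 4.81 to 60.5, so none agreed within sampling noise. Members, gene lists, tests and alternatives were chosen with earlier results of these data known. Named list genes were, per unit, at most the 6 with the smallest unadjusted p under 0.05; member pairs are printed with fold changes at an unadjusted p under 0.1 and with per-mouse values at one under 0.05, a choice made after seeing them. Positions and hairpins come from GENCODE vM21 (GRCm38), in which all 10 genes were matched by symbol. Some genes are not reported here.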

Additional observations from a re-analysis of the deposited data

Results flagged for a closer look

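Of 112 groups of 4 mice, 3 held a mouse far from the other 3, where chance gives about 1 in 20. Slc40a1 in Oligodendrocyte-like cells was 9.26 CPM in Pb F2, below the other Pb mice at 13.5 to 14.2 CPM. Tfrc in cluster 0 was 438 CPM in Ctl F1, above the other Ctl mice at 291 to 309 CPM. Slc39a10 in cluster 2 was 389.6 CPM in Pb F2, above the other Pb mice at 303 to 314 CPM.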

How the results depend on the processing

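No gene was called in any unit by the edgeR test, and other size factors, limma-voom, no sex covariate, doublets kept, Leiden resolution 0.5 and clustering without the metal genes, where they gave a value, called 0 too. By DESeq2, 19 genes passed over all cells, 9 in Microglia-like, 1 in Oligodendrocyte-like cells and 1 in cluster 9. With no low-count filter the calls were 5 in Astrocyte-like, 1 in Cajal-Retzius-like, 48 in Microglia-like, 25 in Oligodendrocyte-like, 17 in Pericyte-like and 16 in Smooth muscle-like cells, 27 in cluster 0, 32 in cluster 2 and 44 in cluster 9; the cause was not tested. Leaving out 1 mouse gave 0 in all cells and Cajal-Retzius-like cells, 0 to 11 in Astrocyte-like (11 without Pb M1), 0 to 6 in Microglia-like (6 without Pb F2), 0 to 3 in Oligodendrocyte-like (3 without Ctl M2), 0 to 1 in Pericyte-like (without Pb F2), 0 to 5 in Smooth muscle-like cells (5 without Ctl M2), 0 to 1 in cluster 0 (without Ctl F2 or Ctl M2), 0 to 2 in cluster 2 (2 without Pb F2) and 0 to 24 in cluster 9 (24 without Ctl F1). The replicate block called 8 genes in Astrocyte-like, 3 in Cajal-Retzius-like and 1 in Smooth muscle-like cells. Trf in astrocytes was among them (log2 fold change 2.49, edgeR adjusted p = 0.0016). Among mice with enough astrocytes, only F1 and M2 were present in both groups, so this Trf value rests on those mice alone. Ctl F1 had 2 UMIs of Trf there. Pb M1 and Ctl F2, through which the groups overlapped, had no counterpart and did not bear on it. The labels do not say what a number marks, and the numbers are not read as pairs. A Pb and a Ctl mouse cannot share a litter, since their dams were in different groups. Pb and Ctl mice of the same sex and number did not deviate together (r from -0.47 to 0.04 over 4 pairs; 0 of 8 mice correlated best with their own number). That comparison cannot bear on litters, and mice within a group were not compared in this way.

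The 16 member pairs at an unadjusted p under 0.1 kept their direction in all 255 alternatives run. These pairs were picked for their small p, and the alternatives reuse the same mice, so a kept direction is no separate support. Among all 69 pairs, 30 changed sign in at least 1 alternative (79 of 1103). The members by sex and exposure gave 0 calls with other size factors and with no filter. Among the 9 classes with at least 3 mice per group, or those of them that had a counterpart, the class with the highest level was the same for 10 of 10 members in every alternative but the mean over cells, with 9 of 10, which put Ftl1 highest in cluster 9. Among all 11 classes, the mean over cells also put Slc39a14 higher in Astrocyte-like (0.289 per 10000 UMIs) than in Choroid plexus-like cells (0.249). Leaving out cells with 2 or more myelin markers was not run, since 0 to 3 cells per class would remain. Cluster 9 had no separate counterpart with doublets kept, where 172 of its 188 cells fell among Microglia-like cells. At resolution 0.5 it had none either, and 100 of its cells fell among Microglia-like cells. Pericyte-like and Smooth muscle-like cells were not matched at resolution 0.5. Slc11a2 and Slc39a14 had at most 50 UMIs per mouse in each class tested, which limits their precision.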
